A study of Rattus norvegicus with 12 samples.

Results

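The transcriptional response to the cytokine TNF-a was measured in rat nucleus pulposus (NP) cells that carried a control vector. The labels give primary cells of Wistar rats, grown out of explants of the NP, the soft centre of the intervertebral disc, and transduced with lentivirus holding the PLKO vector. The 2 groups compared were PLKO_CTR, left untreated, and PLKO_TNF, given 50 ng/mL TNF-a for 24 h, with 3 libraries in each. The series also holds the groups shTon_CTR and shTon_TNF, cells with an shRNA against TonEBP (gene Nfat5), which are used here only in the last comparison. Titles carry set numbers 1 to 3, and a TNF-a library was compared with the control library of its own set number. Of 13373 genes listed for these 6 libraries, 12373 reached a mean of 10 normalised reads and were tested, and 1000 did not reach that level. A normalised read is a gene's read count divided by 1 scaling factor per library, so it allows comparison of a gene between libraries and not of genes of different length.

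TNF-a binds the receptor Tnfrsf1a, whose adaptors and ubiquitin ligases activate the IkB kinase complex and the MAP kinases. IkB proteins are then degraded, NF-kB dimers enter the nucleus, and the AP-1 factors are made and phosphorylated. Many of the genes they switch on encode inhibitors of the same pathway. In the disc this cytokine is known for inducing chemokines and matrix-degrading proteases and for reducing matrix synthesis.

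Promoters of members of the response are printed first, to show matches to the motifs of NF-kB and AP-1. The genes shown were chosen by hand, and each holds the motif marked in it. Each is the 200 bases before the annotated start of the gene, 5' to 3' on the gene's strand, from RefSeq on the rat assembly GRCr8, which is not the build of the expression tables. In the first 6, capitals mark every match to the NF-kB consensus, on either strand. The inhibitor genes Tnfaip3 and Nfkbia, the subunit gene Nfkb2, the chemokine genes Cxcl2 and Ccl20 and the adhesion gene Vcam1 all rose with TNF-a.
Tnfaip3 (chr1:15543980-15544179, minus strand): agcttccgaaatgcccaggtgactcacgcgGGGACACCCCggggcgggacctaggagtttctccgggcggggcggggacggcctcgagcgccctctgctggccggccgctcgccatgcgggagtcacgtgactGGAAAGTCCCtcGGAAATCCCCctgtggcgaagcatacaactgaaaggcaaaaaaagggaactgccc
Nfkbia (chr6:78597073-78597272, minus strand): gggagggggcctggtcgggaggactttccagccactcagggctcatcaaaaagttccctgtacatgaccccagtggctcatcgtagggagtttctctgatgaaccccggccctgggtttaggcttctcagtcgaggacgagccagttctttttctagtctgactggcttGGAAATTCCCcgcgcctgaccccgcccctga
Nfkb2 (chr1:255108174-255108373, plus strand): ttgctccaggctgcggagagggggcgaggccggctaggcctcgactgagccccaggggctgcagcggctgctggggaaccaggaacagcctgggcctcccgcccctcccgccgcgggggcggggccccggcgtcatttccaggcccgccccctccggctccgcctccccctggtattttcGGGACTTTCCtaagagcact
Cxcl2 (chr14:17467256-17467455, minus strand): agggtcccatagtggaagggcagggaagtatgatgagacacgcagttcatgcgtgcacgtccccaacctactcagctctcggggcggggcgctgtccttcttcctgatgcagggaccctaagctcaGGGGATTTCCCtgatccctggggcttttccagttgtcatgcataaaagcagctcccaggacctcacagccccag
Ccl20 (chr9:91836959-91837158, plus strand): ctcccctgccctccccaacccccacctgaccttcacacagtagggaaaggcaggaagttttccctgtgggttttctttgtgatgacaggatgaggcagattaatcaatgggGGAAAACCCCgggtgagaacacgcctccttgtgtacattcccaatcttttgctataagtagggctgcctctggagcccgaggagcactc
Vcam1 (chr2:206742784-206742983, minus strand): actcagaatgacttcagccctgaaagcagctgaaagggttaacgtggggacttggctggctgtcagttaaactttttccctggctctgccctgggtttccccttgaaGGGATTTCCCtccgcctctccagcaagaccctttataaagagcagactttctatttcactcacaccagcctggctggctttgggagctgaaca

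In the next 3, capitals mark the AP-1 motif TGANTCA, whose palindromic outer bases make it read alike on both strands. They belong to the adaptor gene Traf1 and the collagenase and stromelysin genes Mmp13 and Mmp3, which rose as well.
Traf1 (chr3:38635771-38635970, minus strand): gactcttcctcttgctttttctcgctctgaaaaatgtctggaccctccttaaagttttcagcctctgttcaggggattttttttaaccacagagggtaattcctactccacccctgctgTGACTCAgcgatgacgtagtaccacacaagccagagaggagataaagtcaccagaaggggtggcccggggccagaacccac
Mmp3 (chr8:12925081-12925280, plus strand): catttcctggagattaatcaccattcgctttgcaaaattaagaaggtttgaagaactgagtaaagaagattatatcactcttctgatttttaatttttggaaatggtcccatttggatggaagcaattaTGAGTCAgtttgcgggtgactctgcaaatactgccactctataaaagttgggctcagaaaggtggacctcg
Mmp13 (chr8:12782629-12782828, plus strand): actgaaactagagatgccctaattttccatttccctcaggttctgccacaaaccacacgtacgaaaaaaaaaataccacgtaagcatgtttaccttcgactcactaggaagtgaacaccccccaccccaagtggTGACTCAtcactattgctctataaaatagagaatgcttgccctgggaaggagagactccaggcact

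Matches lay at -170, -67 and -55 in Tnfaip3, at -31 in Nfkbia, -20 in Nfkb2, -89 in Ccl20 and -93 in Vcam1, counting the base before the start as -1 and giving the far end of the match. Cxcl2 held a pair of overlapping matches at -74 and -73. The AP-1 matches lay at -81 in Traf1, -71 in Mmp3 and -66 in Mmp13. A single promoter entry was found for 8244 of the tested genes (66.6%). An NF-kB consensus match stood in 43 of 425 promoters of genes that rose (10.1%), in 25 of 365 of genes that fell (6.85%), in 7.05% of those of all tested genes and in 5.3% of 24206 RefSeq promoters. The AP-1 motif stood in 5.41% of the promoters of genes that rose, in 3.29% of those of all tested genes and in 4.97% of the 24206 RefSeq promoters. Among the 45 promoters of genes that rose by a log2 fold change of at least 2, it stood in 11 (24.4%), and the NF-kB consensus in 5 (11.1%). Among named genes that rose, Icam1, Ptgs2 and Nfkb1 held no NF-kB consensus match. Vim and Nfkbiz, which fell, held 3 and 1. The shares are descriptions with no test, and a match is not a binding site.

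TNF-a raised 615 genes and lowered 575 of the 12373 tested, at an adjusted p under 0.05 in limma with the set as a block. These 1190 genes are 9.62% of those tested, 4.97% for rises and 4.65% for falls. Large changes were mostly rises. A log2 fold change of at least 2 was reached by 66 genes that rose, against 18 that fell by as much, and a change of 3 by 19 against 2. Counted from a change of 1 upwards, with these included, 205 genes rose and 202 fell. The median log2 fold change was 0.76 over the genes that rose, -0.84 over those that fell and -0.01 over all tested genes.

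Every one of the 1190 genes moved the same way in all 3 sets, as did 51.9% of all tested genes. All 3 libraries of one group lay beyond all 3 of the other for 486 of them (40.8%), against 11.5% of all tested genes. These were 256 of the genes that rose, where 5.95% of all genes stood apart upwards, and 230 of those that fell, where 5.56% stood apart downwards. For the others the ranges of the groups overlapped. Responses were smallest in set 1. The median log2 ratio of the genes that rose was 0.57 in set 1, 0.84 in set 2 and 0.87 in set 3, and that of the genes that fell -0.60, -0.98 and -0.88. Genes that rose took 8.21%, 6.0% and 5.4% of the reads on listed genes in the PLKO_CTR libraries of sets 1 to 3 and 14.3%, 15.5% and 12.6% in the PLKO_TNF libraries. Genes that fell took 5.86%, 9.25% and 8.35% and then 3.60%, 4.20% and 4.11%. The share of genes called grew with their level, from 4.17% at means of 10 to 100 normalised reads to 18.6% at 10000 or more.

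**Figure D1:**
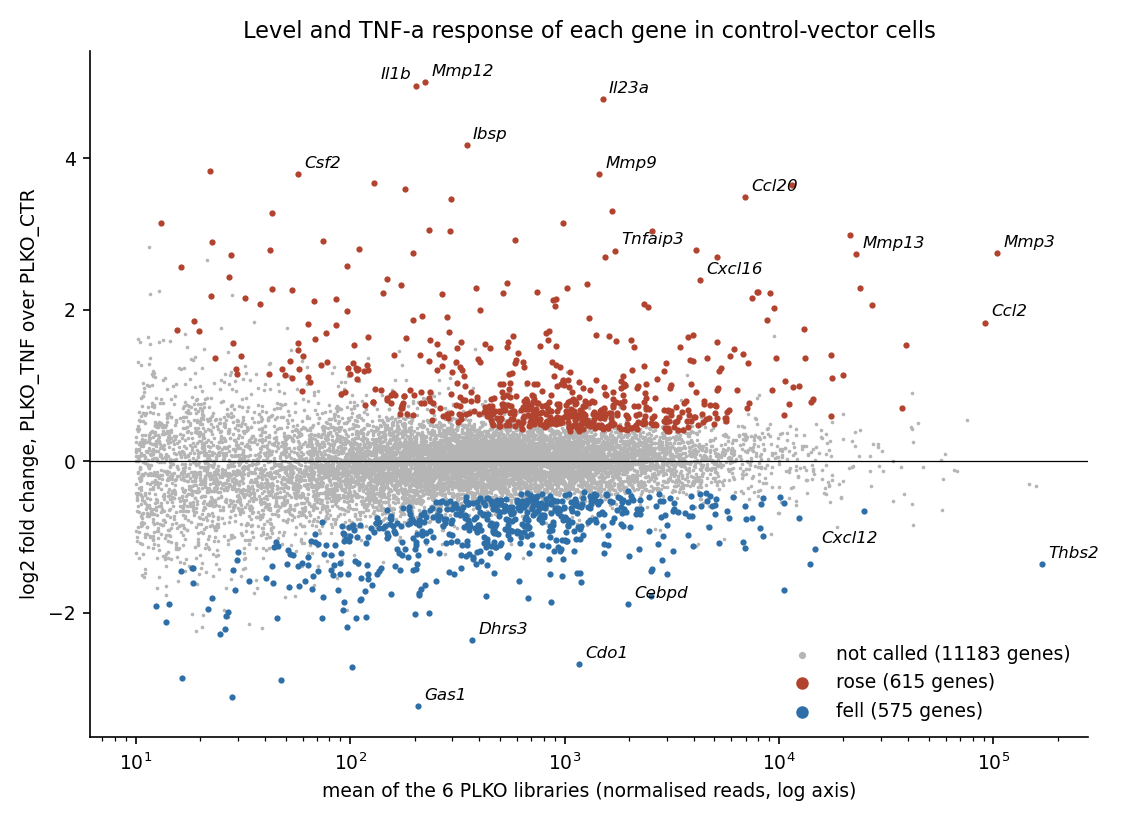
Each point is 1 of the 12373 tested genes, placed by its mean over the 6 PLKO libraries (normalised reads, log axis) and its log2 fold change with TNF-a. The 615 genes that rose are red and the 575 that fell blue, and rises reach 5.01 where falls end at -3.23.

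The number of calls depended on pairing by set and on the variance model. Without the set in the model limma called 0 genes, with 793 at an unadjusted p under 0.05, edgeR called 0 (788) and DESeq2 142. With the set but without limma's mean-variance trend 55 genes passed. What a set stands for (animal, culture or day) is not in the labels. With the set as a block, the p-values rest on how far the change with TNF-a differed between sets. Differences in level between sets are taken out, and limma's trend draws each gene's variance towards that of genes of like level. That spread may be technical. Reads on listed genes ran from 8906243 to 18522142 per library. Set 2 weighed most: without it 545 genes passed, against 1410 without set 1 and 968 without set 3, and 420 of the 1190 genes (228 that rose and 192 that fell) passed with all sets and with any 1 left out. Muscle transcripts marked the cultures of sets 1 and 2. The summed level of 10 skeletal muscle markers was 70770.0, 25735 and 231 normalised reads in the PLKO_CTR libraries of sets 1 to 3 and 54341, 21710 and 199.9 in PLKO_TNF. Of 10 leukocyte markers 5 are listed, with sums of 330.5 to 404 in PLKO_CTR and 237 to 368 in PLKO_TNF. The part of other cells in the results below was not tested, and in whole cultures fewer cells of a type and less RNA per cell cannot be told apart. Nfat5 itself had 789, 1571 and 2106 normalised reads in PLKO_CTR and 738, 1259 and 560.1 in PLKO_TNF. It was lower with TNF-a in each set, the groups overlapped, and it did not pass (log2 fold change -0.78 with an SE of 0.32, adjusted p = 0.165).

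The genes with the largest rises are described first. Mmp12, macrophage elastase, had 38.3, 1.74 and 10.8 normalised reads in the PLKO_CTR libraries of sets 1 to 3 and 848, 249 and 199.9 in PLKO_TNF. All TNF-a libraries were far above all untreated ones, although set 2 began from almost nothing (log2 fold change 5.01 with an SE of 0.45, adjusted p = 0.00351). Csf2, the growth factor GM-CSF, went from 7.95, 7.84 and 3.62 to 60.3, 175 and 88.2, with its larger ratios in sets 2 and 3 (log2 fold change 3.79 with an SE of 0.38, adjusted p = 0.00455). Ibsp, a bone sialoprotein that binds hydroxyapatite, went from 34.7, 48.8 and 10.8 to 1384, 391 and 226 and rose most in set 1 (log2 fold change 4.17 with an SE of 0.39, adjusted p = 0.00351). Igfbp3, a carrier protein of insulin-like growth factors, reached nearly the same level in all sets with TNF-a, from 16.6, 96.7 and 65.1 to 499, 522 and 575 (log2 fold change 3.46 with an SE of 0.41, adjusted p = 0.00767). Tfpi2, an inhibitor of serine proteases laid down in matrix, kept the order of the sets in both groups, with 1475, 532 and 51.8 untreated and 8224, 4439.9 and 638 treated, so that the groups overlapped while each set rose (log2 fold change 3.04 with an SE of 0.20, adjusted p = 0.000886).

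The genes with the largest falls follow. Gas1, a membrane protein that binds hedgehog ligands and is made by resting cells, went from 274, 390.4 and 462 normalised reads to 45.4, 34.4 and 35.3. Its fold change was the lowest of the named genes, and the TNF-a libraries of the 3 sets lay close together (log2 fold change -3.23 with an SE of 0.24, adjusted p = 0.00176). Sned1, a matrix protein, went from 59.3, 306 and 158 to 11.4, 64 and 11.8, and set 2 stayed highest in both groups (log2 fold change -2.72 with an SE of 0.32, adjusted p = 0.00767). Rerg, a growth-inhibiting small GTPase, went from 101, 341 and 44.6 to 24.8, 56.6 and 10.3 (log2 fold change -2.19 with an SE of 0.23, adjusted p = 0.00527). Mgll, the lipase that degrades the endocannabinoid 2-AG, went from 132, 387 and 77.1 to 37.6, 49.2 and 27.9 without overlap (log2 fold change -2.05 with an SE of 0.31, adjusted p = 0.0152). The receptor gene Vipr2, the potassium channel subunit gene Kcne4 and the magnesium channel gene Trpm6 had log2 fold changes of -1.96, -2.07 and -1.85. Fibin, a secreted protein, and Lmod1, a smooth muscle actin nucleator, had -2.07 and -1.83. With 1 set left out the call was lost for Fibin (0.0568 without set 1) and Lmod1 (0.0543 without set 2), in adjusted p. In the fit of all 12 libraries Rerg, Trpm6 and Lmod1 did not pass (adjusted p from 0.0549 to 0.0917).

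**Figure D2:**
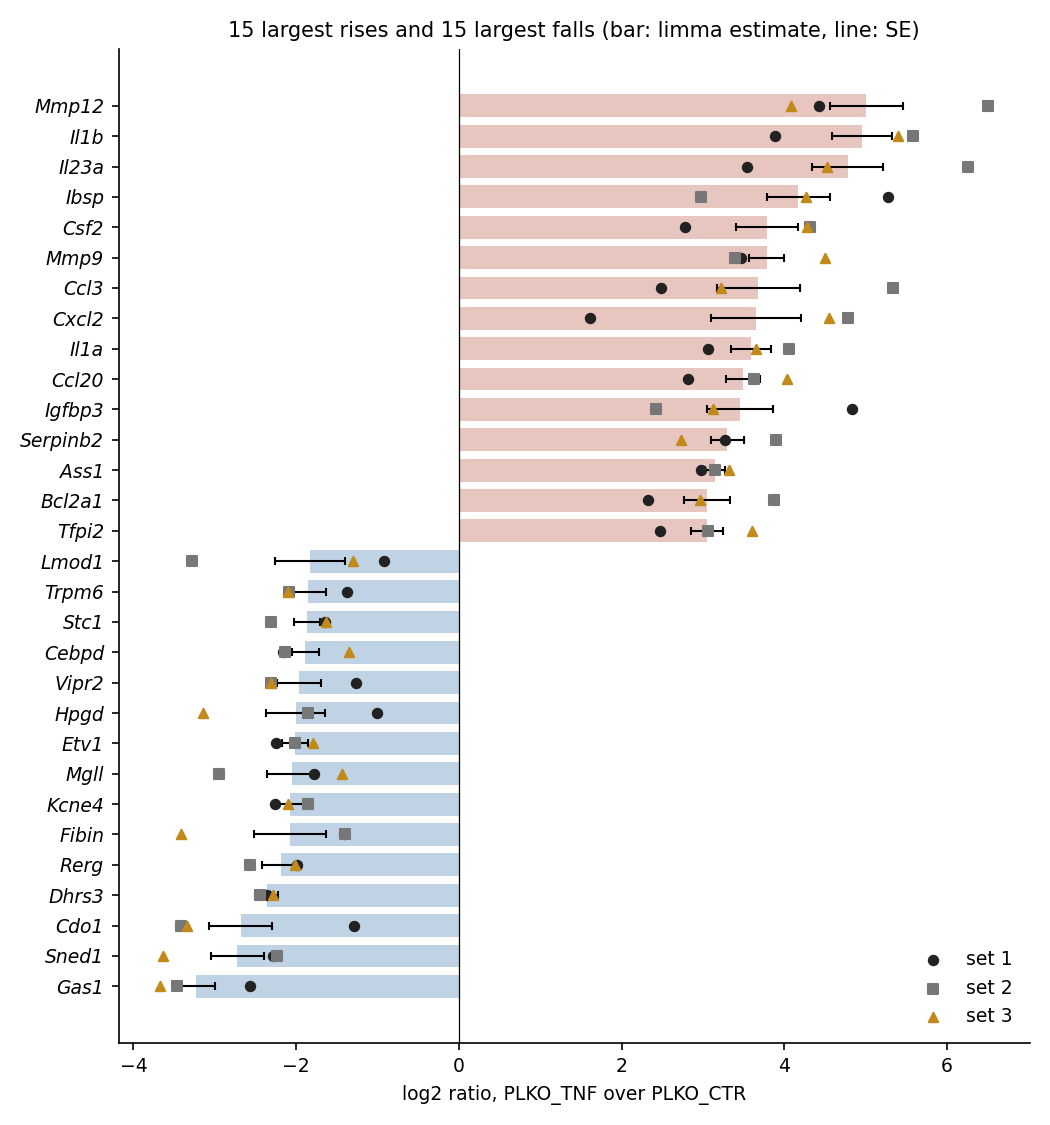
Bars are limma's log2 fold changes with SE for the 15 largest rises and 15 largest falls among genes whose mean reached 50 normalised reads, and points are the log2 ratios of sets 1 to 3. All points of a gene lie on the same side of 0, and the sets differ most for Il23a and Cxcl2 among the rises.

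Counts of this and all later lists stand beside the 4.97% of all tested genes that rose and the 4.65% that fell. Of the proteins at the TNF receptor, 2 of 16 tested members of the list rose and 1 fell (median 0.14). Birc3, a ubiquitin ligase recruited to the receptor, had 341, 278 and 443 normalised reads untreated and 1501, 1183 and 1677 with TNF-a. Its sets moved by nearly the same ratio (log2 fold change 2.05 with an SE of 0.10, adjusted p = 0.000566). Traf1, an adaptor that binds it, went from 136, 104 and 145 to 619, 453 and 857, again with no overlap (log2 fold change 2.28 with an SE of 0.14, adjusted p = 0.000886). The receptor gene Tnfrsf1a itself fell slightly, from 1345, 1523 and 1902 to 1070.0, 1083 and 1349.6 (log2 fold change -0.44 with an SE of 0.10, adjusted p = 0.0373). Tnfrsf1a (0.17 without set 2, 0.108 without set 3) lost the call with a set left out, as these adjusted p show. The fit of all 12 libraries did not call Tnfrsf1a (adjusted p = 0.0997). The other 13 members, such as the adaptor gene Tab2 (log2 fold change 0.16 with an SE of 0.09, adjusted p = 0.293), did not pass.

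Among kinases and subunits, 6 of 13 tested genes rose and 0 fell (median 0.43). Nfkb2, the precursor of the p52 subunit, had 956, 770.3 and 1130.3 normalised reads in PLKO_CTR and 4350.1, 2937 and 4568 in PLKO_TNF. Relb, its usual partner, had 559, 367 and 788 and then 1248, 909 and 1475. Both pairs of groups stood apart, and the change was larger in Nfkb2 (log2 fold change 2.04 with an SE of 0.10, adjusted p = 0.000531) than in Relb (log2 fold change 1.12 with an SE of 0.11, adjusted p = 0.00466). Nfkb1, the precursor of p50, went from 3785, 3524 and 3238 to 7397, 7213 and 5696 (log2 fold change 0.94 with an SE of 0.10, adjusted p = 0.00627). Rela, Ikbkb and Ikbke, the genes of the p65 subunit and of 2 IkB kinases, had smaller rises of 0.55, 0.53 and 0.54. Rela (0.075 without set 1, 0.106 without set 3), Ikbkb (0.0511 without set 1, 0.0676 without set 2, 0.0917 without set 3) and Ikbke (0.0889 without set 1, 0.0812 without set 3) lost the call with a set left out, in adjusted p. Ikbke did not pass in the fit of all 12 libraries (adjusted p = 0.0845).

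The feedback inhibitors split. Of 17 tested, 7 rose and 1 fell, and the median was 0.00. Tnfaip3, the deubiquitinase A20 that shuts the pathway off, went from 505, 339.8 and 469 to 2945, 2457 and 3633 normalised reads (log2 fold change 2.78 with an SE of 0.11, adjusted p = 0.000213). Nfkbia, encoding IkB-alpha, went from 2391, 2673 and 4683 to 7764, 6496 and 12852 (log2 fold change 1.48 with an SE of 0.12, adjusted p = 0.00218), and Nfkbie, encoding IkB-epsilon, from 328, 213 and 288 to 939, 536 and 939 (log2 fold change 1.51 with an SE of 0.12, adjusted p = 0.00218). In all 3 the TNF-a libraries lay wholly above the untreated ones. Tnfaip2, named for its induction by TNF, rose by 2.03 (SE 0.14). Nfkbiz, a nuclear IkB protein that helps induce secondary response genes, was the member that fell, from 2417, 5500.3 and 2876 to 1117, 3311 and 2338 (log2 fold change -0.71 with an SE of 0.16, adjusted p = 0.0373). The other 7 calls passed with any 1 set left out. The adjusted p passed 0.05 with a set left out for Nfkbiz (0.0723 without set 1, 0.075 without set 2). Fitted with all 12 libraries, Nfkbiz did not pass (adjusted p = 0.1).

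**Figure D3:**
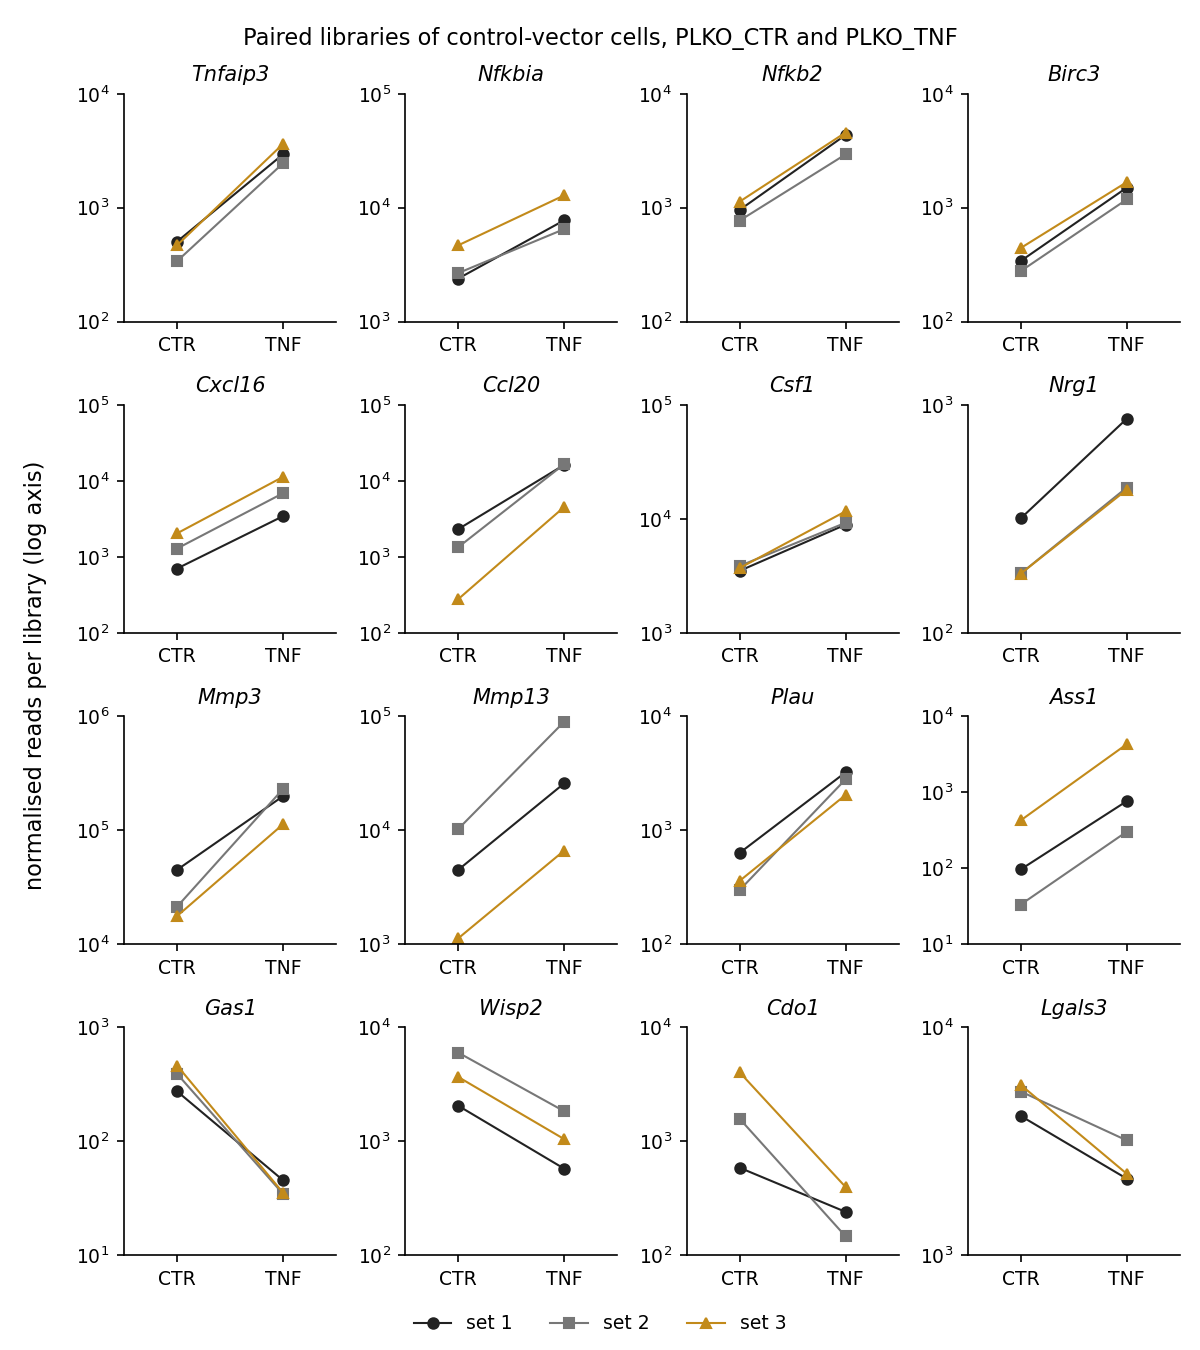
Each panel shows 1 gene, with a line from the PLKO_CTR library to the PLKO_TNF library of the same set (normalised reads, log axis, range set by gene). Every line of the first 12 genes goes up and every line of Gas1, Wisp2, Cdo1 and Lgals3 goes down, and the lines of Ass1 are nearly parallel from untreated levels of 33.1 to 425.

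Chemokines draw leukocytes along a gradient. Of 4 tested neutrophil-attracting CXC genes 2 rose and 0 fell (median 1.63), and of 12 other chemokine genes 6 rose and 1 fell (median 1.36). Cxcl16, a membrane-anchored chemokine for T cells, had 702, 1289 and 2041 normalised reads in PLKO_CTR and 3435, 6888 and 11309 in PLKO_TNF. Its 3 sets moved in close step although their levels differed (log2 fold change 2.39 with an SE of 0.10, adjusted p = 0.000213). Ccl20 went from 2322, 1344 and 278 to 16309.9, 16684 and 4553 (log2 fold change 3.49 with an SE of 0.21, adjusted p = 0.000886). Ccl2, the main attractant of monocytes, held 0.309% of the reads on listed genes in PLKO_CTR and 1.03% in PLKO_TNF on average, and its level went from 41332, 56609.5 and 25291 to 116864, 180319 and 126069 (log2 fold change 1.83 with an SE of 0.24, adjusted p = 0.0101). Its neighbour in function Ccl7 rose by 1.53 (SE 0.24).

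Cxcl2 and Cxcl3 rose with an unequal size in the sets. Cxcl2 went from 2806, 1649.6 and 424 to 8589, 45331 and 9988, with log2 ratios of 1.61, 4.78 and 4.55 in sets 1 to 3 (log2 fold change 3.65 with an SE of 0.56, adjusted p = 0.0158). Cxcl1, their close relative, had 32925, 44114 and 22941 untreated and 23744, 76185 and 47414 treated and was lower with TNF-a in set 1 (log2 fold change 0.45 with an SE of 0.30, adjusted p = 0.354). These genes are near-identical in parts, so reads may be split between them. Cxcl12, which retains stem and progenitor cells, was the chemokine that fell, from 8865, 31578 and 22181 to 5448, 10048 and 10194 (log2 fold change -1.16 with an SE of 0.19, adjusted p = 0.0177). The larger fit of 12 libraries left out Cxcl12 (adjusted p = 0.269).

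Interleukin and colony-stimulating factor genes rose in 11 of 17 tested cases and fell in 0 (median 1.59). Il1a went from 25.3, 41.8 and 4.82 to 219, 715 and 72 normalised reads (log2 fold change 3.59 with an SE of 0.25, adjusted p = 0.00132) and Il1b from 32.5, 12.2 and 0 to 496, 634 and 41.2 (log2 fold change 4.96 with an SE of 0.37, adjusted p = 0.00176). For both the untreated libraries lay below all treated ones, and for both set 3 was lowest. Il23a, a subunit of interleukin 23, went from 203, 74.9 and 21.7 to 2376, 5824 and 523 (log2 fold change 4.78 with an SE of 0.44, adjusted p = 0.00351). Its log2 ratios of 3.54, 6.26 and 4.53 were among the 5 widest ranges of the called genes with a mean of at least 50. Csf1, the macrophage growth factor, had narrow ranges in both groups, with 3499, 3863 and 3702 untreated and 8899, 9243 and 11651 treated (log2 fold change 1.42 with an SE of 0.12, adjusted p = 0.00277). Il11 had 3999.7, 4564 and 181 and 7478, 36798 and 1216, with set 3 lowest in both groups (log2 fold change 2.22 with an SE of 0.37, adjusted p = 0.0188). Csf3, the neutrophil growth factor, went from 2029, 1361 and 192 to 3147, 13989 and 3959 (log2 fold change 2.79 with an SE of 0.60, adjusted p = 0.0371). Il33, an alarmin, had 16037, 6636 and 101 and 14569, 8838 and 171 and did not pass (log2 fold change 0.34 with an SE of 0.17, adjusted p = 0.225). Leaving out a set ended the call, in adjusted p, for Csf3 (0.051 without set 2). Tnf itself and Il6, both named after their values were seen, rose as well. Tnf had 5.06, 0 and 12.1 untreated and 21.3, 7.38 and 121 treated (log2 fold change 2.72 with an SE of 0.43, adjusted p = 0.0172), and Il6 had 1367, 1128 and 288 and 1653, 4191 and 1759.8 (log2 fold change 1.59 with an SE of 0.38, adjusted p = 0.0471). Of the 11 calls 7 passed with any 1 set left out. With 1 set left out the call was lost for Il6 (0.0799 without set 2), in adjusted p. Tnf did not reach the level to be tested without set 3 and did not pass in the fit of all 12 libraries (adjusted p = 0.118).

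Receptors and sensors of innate immunity rose in 5 of 34 tested cases and fell in 0 (median -0.04). Not all of the genes named here belong to that list. Nlrp3, the inflammasome sensor, went from 584, 518 and 223 to 2351, 2475 and 1509.9 normalised reads without overlap (log2 fold change 2.34 with an SE of 0.15, adjusted p = 0.000886). Tlr2, a receptor for bacterial lipoproteins, went from 4047, 7402 and 12750.4 to 10039, 12547 and 23366 and rose in each set (log2 fold change 0.98 with an SE of 0.14, adjusted p = 0.0136). Ripk2, the kinase of the NOD receptors, rose by 1.29 (SE 0.23), most of all in set 2. Il1r1, the interleukin 1 receptor, and Irak2, a kinase below it, rose by 0.55 and 0.62. Irg1, which makes itaconate from a Krebs cycle metabolite, went from 115, 40.1 and 21.7 to 174, 549 and 143 (log2 fold change 2.33 with an SE of 0.52, adjusted p = 0.0401). Il1r1 (0.0546 without set 2), Irak2 (0.0616 without set 1, 0.0805 without set 2, 0.0868 without set 3) and Irg1 (0.0646 without set 2) lost the call with a set left out, as these adjusted p show. A fit of all 12 libraries did not call Tlr2 and Il1r1 (adjusted p from 0.0517 to 0.0738).

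Genes of leukocyte adhesion and other cell surface immune molecules rose in 5 of 12 tested cases and fell in 0 (median 0.50). Icam1 went from 4306, 5291 and 6793 to 13346, 11667 and 17006 normalised reads (log2 fold change 1.37 with an SE of 0.13, adjusted p = 0.00395) and Cd44, the hyaluronan receptor, from 12181, 15559.7 and 8627 to 21024, 41392 and 20040.2 (log2 fold change 1.14 with an SE of 0.16, adjusted p = 0.0124), both without overlap. Vcam1 had 6009, 2197 and 1712 and 11859, 3756 and 6131 and rose most in set 3 (log2 fold change 1.20 with an SE of 0.20, adjusted p = 0.0192). Cd83, a marker of activated dendritic cells, rose from low levels, 18.8, 20 and 6.03, to 185, 183 and 35.3 (log2 fold change 2.91 with an SE of 0.28, adjusted p = 0.00357). The summed leukocyte markers had 330.5, 404 and 353 and then 368, 325 and 237, higher with TNF-a in set 1 and lower in the others, and their part in this rise was not tested. Tnfrsf11b, the decoy receptor osteoprotegerin, rose by 0.94. Tnfrsf11b (0.0583 without set 1, 0.0761 without set 3) lost the call with a set left out, in adjusted p. In the fit of all 12 libraries Vcam1 and Tnfrsf11b did not pass (adjusted p from 0.0704 to 0.222).

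Interferon-type genes had few calls. Of 21 tested interferon-stimulated genes 3 rose (14.3%) and 0 fell, with a median of 0.19. Of 24 interferon regulatory, STAT and SOCS genes 2 rose (8.33%) and 1 fell (4.17%), with a median of 0.02. Among all tested genes 4.97% rose and 4.65% fell. The guanylate-binding proteins Gbp2 and Gbp5 went from 567, 379.9 and 1849 to 1102, 929 and 3590.2 and from 245, 89.8 and 560.3 to 593, 415 and 1358, with log2 fold changes of 1.07 and 1.58. Irf1, the transcription factor above them, rose by 1.31 and Irf5 by 0.91. Antigen presentation and proteasome genes had 2 rises and 0 falls among 18 (median 0.27), Tapbp with 0.73 and Psmb10, an immunoproteasome subunit, with 0.80. The adjusted p passed 0.05 with a set left out for Psmb10 (0.0844 without set 1, 0.0765 without set 3). Complement and acute-phase genes had 0 rises and 1 fall among 19 (median -0.31). That fall was 5.26% of the list, near the 4.65% of all tested genes. C3 and Lcn2, the members with the most reads, had log2 fold changes of -0.23 (SE 0.22) and 0.02 (SE 0.24), and neither passed.

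Enzymes of prostaglandins and nitric oxide rose in 8 of 16 tested cases and fell in 1 (median 0.46). Ptgs2, the inducible cyclooxygenase, went from 12135, 9158 and 2503 to 22441, 79819 and 17873 normalised reads (log2 fold change 2.28 with an SE of 0.40, adjusted p = 0.0212). Hpgd, which inactivates prostaglandins, went the other way, from 423, 282 and 372 to 209, 77.5 and 41.2 (log2 fold change -2.0 with an SE of 0.36, adjusted p = 0.0231). The constitutive enzyme gene Ptgs1 had -0.28 (SE 0.11) and did not pass. On the nitric oxide side, the synthase gene Nos2 went from 41.2, 101 and 124 to 129, 388 and 315 (log2 fold change 1.63 with an SE of 0.18, adjusted p = 0.0059), and a separate entry spelled NOS2 rose by 1.80 (SE 0.25), so reads of this gene stand in 2 rows. Ass1, which makes the arginine precursor, went from 96.2, 33.1 and 425 to 760.4, 301 and 4275 (log2 fold change 3.15 with an SE of 0.13, adjusted p = 0.000213). Slc7a1, an arginine transporter, rose by 1.08, and Gch1, which makes the cofactor tetrahydrobiopterin, by 1.55.

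Matrix metalloproteinases cut collagen, proteoglycans and other matrix proteins. Of 19 tested proteases and inhibitors 7 rose and 3 fell (median -0.07). Mmp3, stromelysin, held 0.367, 0.147 and 0.136% of the reads on listed genes in the PLKO_CTR libraries and 1.51, 1.56 and 0.859% in PLKO_TNF, the largest gains of any gene being its own and that of Ccl2. Mmp13, collagenase 3, went from 4484, 10246 and 1123 to 25753, 89619 and 6617 normalised reads. The sets kept their order and the groups overlapped, but each set rose by a similar ratio (log2 fold change 2.74 with an SE of 0.15, adjusted p = 0.000685). Mmp9 rose from 244, 125 and 183 to 2716, 1316 and 4152 (log2 fold change 3.79 with an SE of 0.21, adjusted p = 0.000685). Mmp10 and the inhibitor Timp1, both named after their values were seen, rose by 2.99 (SE 0.30) and 1.10 (SE 0.13). The genes that fell were those of the protease Mmp19 and the inhibitors Reck and Timp2, by 0.67, 0.48 and 0.47. Adjusted p above 0.05 arose with a set left out for Mmp19 (0.0533 without set 1, 0.0503 without set 3), Reck (0.0525 without set 1, 0.0962 without set 2, 0.194 without set 3) and Timp2 (0.0576 without set 1, 0.134 without set 2, 0.212 without set 3). Reck and Timp2 did not pass in the fit of all 12 libraries (adjusted p from 0.0829 to 0.15).

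The ADAMTS and ADAM proteases had 3 rises and 2 falls among 18 tested (median -0.10). Adamts8 went from 995, 682 and 677 to 1939.7, 2564 and 2867 normalised reads (log2 fold change 1.65 with an SE of 0.21, adjusted p = 0.00915), and Adam17, the sheddase that frees TNF-a and its receptors from the membrane, from 2872, 4279 and 4253 to 4292, 7721 and 7189 (log2 fold change 0.73 with an SE of 0.11, adjusted p = 0.0136). Adamts4 and Adamts5, the main aggrecanases, are named after their values were seen. Adamts4 had 0.12 (SE 0.20, adjusted p = 0.723) and Adamts5 -0.60 (SE 0.19, adjusted p = 0.0907). Neither passed. Adamts1, a protease of versican and aggrecan, had 0.42 (adjusted p = 0.119). Adamts2, which trims procollagen, and Adamts15 fell by 0.75 and 1.27, and Adam12 rose by 0.47. Leaving out a set ended the call, in adjusted p, for Adamts2 (0.147 without set 2), Adamts15 (0.0696 without set 2, 0.0542 without set 3) and Adam12 (0.148 without set 2, 0.0649 without set 3). Fitted with all 12 libraries, Adamts15 and Adam12 did not pass (adjusted p from 0.254 to 0.281).

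Of 20 serine proteases, serpins and cathepsins 5 rose and 0 fell (median -0.17), and all 5 encode plasminogen activators, their receptor or serpins. Plau, urokinase, went from 629.9, 297 and 358 to 3209, 2789 and 2033 normalised reads (log2 fold change 2.69 with an SE of 0.17, adjusted p = 0.000886) and its receptor Plaur from 581, 383 and 205 to 1055, 2133 and 723 (log2 fold change 1.72 with an SE of 0.27, adjusted p = 0.0172). Plat, the tissue-type activator, rose in every set, and set 2 lay far above the others in both groups, with 2475, 15955 and 1875 and 5098, 48841 and 5041 (log2 fold change 1.36 with an SE of 0.14, adjusted p = 0.00455). The inhibitors Serpinb2 and Serpine2 rose by 3.30 and 0.82. The lysosomal Ctsb had -0.06 (SE 0.16). All 5 calls passed with any 1 set left out. The larger fit of 12 libraries left out Serpine2 (adjusted p = 0.118).

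Of 22 fibrillar collagens and processing enzymes 0 rose and 5 fell (median -0.26). Col3a1, a fibrillar collagen, went from 19339, 24701 and 2419.7 to 9378, 7197 and 501 normalised reads and fell in every set, from a level that was much lower in set 3 (log2 fold change -1.70 with an SE of 0.22, adjusted p = 0.00934). Col1a1 had 8817, 53645 and 13663 and 7708, 21099 and 6570.3 and did not pass (log2 fold change -0.87 with an SE of 0.22, adjusted p = 0.055). Loxl3, a crosslinking oxidase, fell by 0.90 (SE 0.09). Its relative Loxl1, the procollagen enhancer Pcolce and the prolyl hydroxylase P4ha1 fell by 0.70, 0.57 and 0.46. Among 16 network-forming and fibril-associated collagens 1 rose and 4 fell (median -0.09). Col6a3 went from 4112, 4413 and 3255 to 2875, 1544 and 872 (log2 fold change -1.31 with an SE of 0.24, adjusted p = 0.0239), Col14a1 and Col8a2 fell by 0.99 and 0.83, and Col7a1, the anchoring fibril collagen, rose by 0.77. Loxl1 (0.096 without set 2), Pcolce (0.134 without set 2, 0.119 without set 3), P4ha1 (0.171 without set 2, 0.145 without set 3), Col14a1 (0.0648 without set 2), Col8a2 (0.0503 without set 2) and Col7a1 (0.0607 without set 1, 0.101 without set 2) lost the call with a set left out, as these adjusted p show. When all 12 libraries were fitted together, Col6a3, Loxl1, P4ha1, Col14a1, Col8a2 and Col7a1 did not pass (adjusted p from 0.0519 to 0.367).

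Other matrix genes moved singly. Of 31 glycoproteins and elastic fibre genes 1 rose and 4 fell (median -0.30), Ibsp being the one that rose. Thbs2, a thrombospondin that limits collagen fibril size and vessel growth, held 1.83% of the reads in PLKO_CTR and 0.65% in PLKO_TNF on average and went from 114696, 402808 and 228200.0 to 73616, 131835 and 64583 (log2 fold change -1.36 with an SE of 0.32, adjusted p = 0.0438). Fibronectin, Fn1, and Thbs1 had -0.33 (SE 0.32) and -0.30 (SE 0.27) and did not pass, though both were among the 5 genes with the largest change in read share. Of 24 proteoglycan and hyaluronan genes 1 rose and 2 fell (median -0.14). Has2, a hyaluronan synthase, rose from 2271, 642 and 604 to 3475, 2913 and 2413 (log2 fold change 1.60 with an SE of 0.28, adjusted p = 0.0218), while Hapln1, the link protein that fixes hyaluronan in the matrix, fell from 83.9, 683 and 274 to 34.8, 183 and 80.9 (log2 fold change -1.63 with an SE of 0.18, adjusted p = 0.00682). Sulf2, which trims heparan sulfate, fell by 0.91. Dcn and Vcan, decorin and versican, had -0.13 and -0.08 and did not pass. Of the calls among glycoprotein and elastic fibre genes, 1 passed with any 1 set left out. Thbs2 lost the call without set 3 (adjusted p = 0.274). Thbs2 and Has2 did not pass in the fit of all 12 libraries (adjusted p from 0.0542 to 0.106).

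Of 19 tested integrin genes 2 rose (10.5%) and 2 fell (10.5%), with a median of -0.10, and all 4 calls passed with any 1 set left out. Of all tested genes 4.97% rose and 4.65% fell. Itga2, a collagen receptor subunit, rose from 103, 45.3 and 4.82 to 255, 421 and 25 normalised reads (log2 fold change 2.22 with an SE of 0.35, adjusted p = 0.0172) and Itga5, the fibronectin receptor subunit, by 1.02. Itga11, the other collagen-binding subunit named here, fell from 1725, 3149 and 1517 to 1168, 1088 and 522 (log2 fold change -1.21 with an SE of 0.20, adjusted p = 0.0177), and Itgb5 fell by 0.74. A fit of all 12 libraries did not call Itga11 (adjusted p = 0.229).

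**Figure D4:**
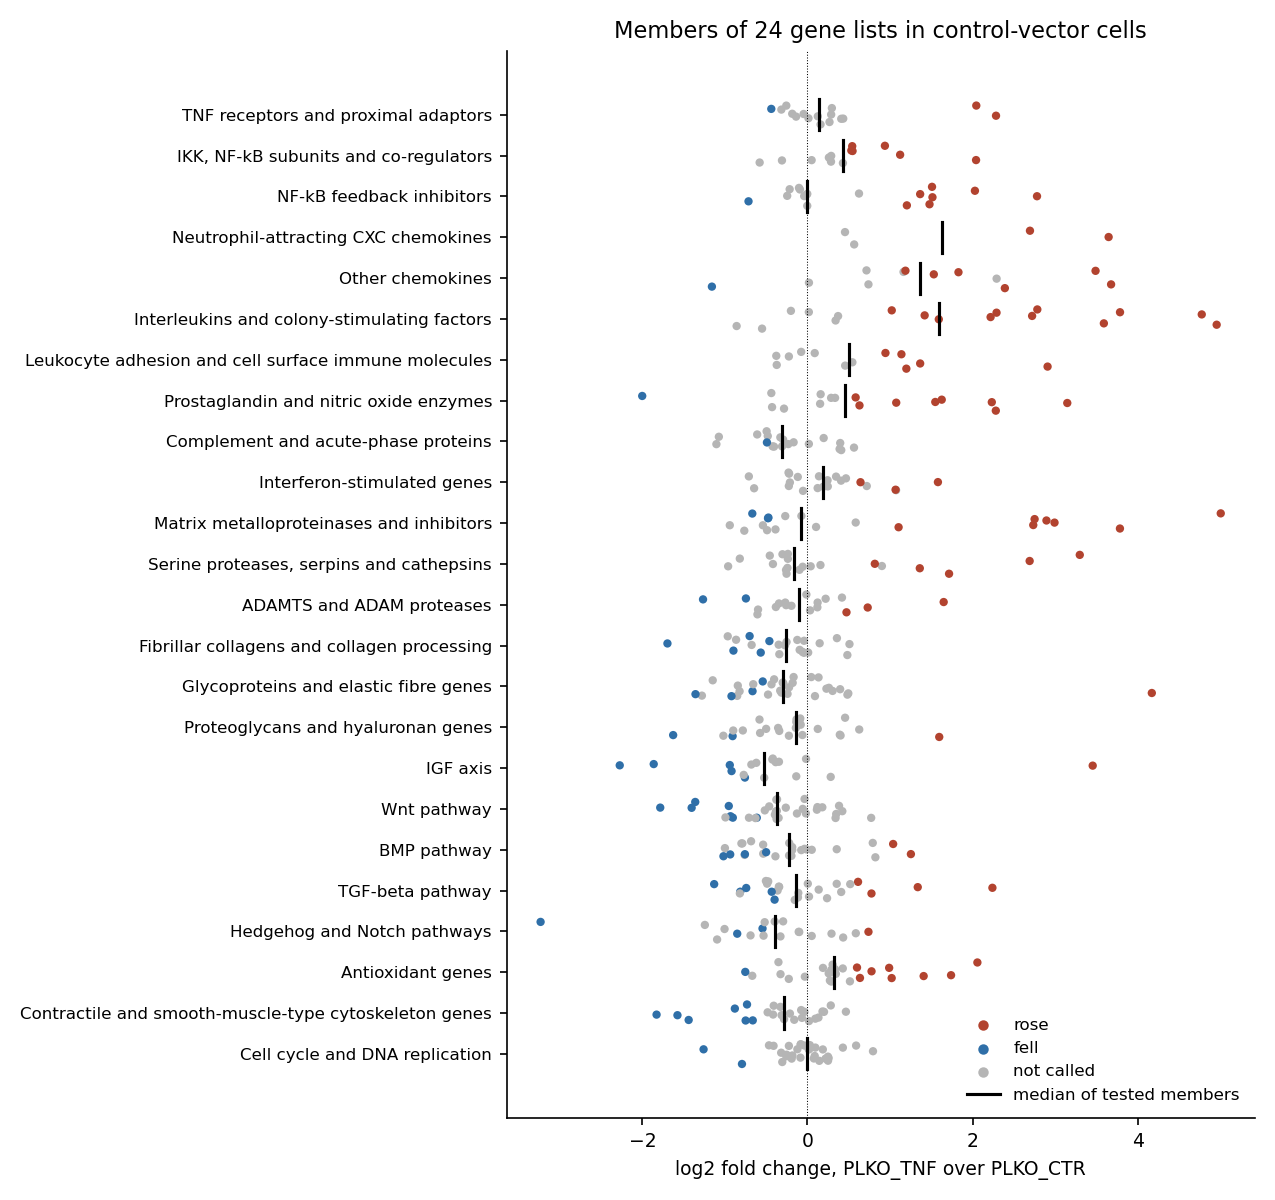
Each point is a tested gene of the list named at the left, placed by its log2 fold change with TNF-a, and the black bar is the median of the list. Points past the test are red (rose) or blue (fell); the medians of the lists shown run from -0.52 for the IGF axis to 1.63 for the neutrophil-attracting chemokines, against -0.01 over all tested genes.

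Among 29 ligands and receptors of the EGF, FGF, HGF, PDGF, VEGF and related families 4 rose and 1 fell (median 0.31), and all 5 are ligands. Nrg1 and Ereg, ligands of the EGF receptor family, went from 318, 182 and 182 to 870.4, 434 and 425 normalised reads (log2 fold change 1.31 with an SE of 0.12, adjusted p = 0.00351) and from 2037, 511 and 519 to 5561, 2897 and 2557 (log2 fold change 2.08 with an SE of 0.20, adjusted p = 0.00351). Vegfa rose by 0.43 and Hgf fell by 0.54. The receptors Pdgfra and Pdgfrb had 0.16 (SE 0.25) and -0.60 (SE 0.15) and did not pass. Adjusted p above 0.05 arose with a set left out for Vegfa (0.0527 without set 1, 0.129 without set 2, 0.157 without set 3) and Hgf (0.197 without set 2). In the fit of all 12 libraries Vegfa and Hgf did not pass (adjusted p from 0.0817 to 0.513).

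The insulin-like growth factor axis had the lowest median of these lists with more than 10 tested genes, -0.52, with 1 rise and 5 falls among 17. Igfbp3 was the rise. Igf1 itself fell from 57.1, 44.4 and 10.8 to 27.7, 8.61 and 0 normalised reads (log2 fold change -2.28 with an SE of 0.52, adjusted p = 0.0417). Pappa, the protease that frees IGF from its carriers, fell from 4628, 4277 and 355 to 3168, 2288 and 143 (log2 fold change -0.92 with an SE of 0.15, adjusted p = 0.0177), and so did its inhibitor Stc1, from 887, 3090.0 and 222 to 283, 624 and 70.6 (log2 fold change -1.86 with an SE of 0.16, adjusted p = 0.00285). The carrier Igfbp4, the substrate of Pappa, fell by 0.76, and Irs2, an adaptor of the receptor, by 0.94. Leaving out a set ended the call, in adjusted p, for Igf1 (0.0967 without set 2) and Irs2 (0.0789 without set 2, 0.0915 without set 3).

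Wnt pathway genes had 0 rises and 7 falls among 33 tested (median -0.37). Wisp2, a CCN family protein induced by Wnt, went from 2046, 5993 and 3661 to 574, 1832 and 1042 normalised reads, a nearly equal ratio in all sets (log2 fold change -1.78 with an SE of 0.09, adjusted p = 0.000569). The receptors Fzd2 and Fzd7 went from 511, 712 and 604 to 331, 295 and 341 and from 622, 793 and 993 to 421, 314 and 531, in both cases without overlap, and fell by 0.91 and 0.93. Lrp5, the co-receptor, fell by 0.61. Fzd1, the member with the most reads, had -0.04 (SE 0.14) and did not pass. Lrp5 did not pass in the fit of all 12 libraries (adjusted p = 0.0878).

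Ligands and antagonists of the TGF-beta and BMP families went both ways. In the TGF-beta list 4 rose and 5 fell among 26 (median -0.14). Inhba, the subunit of activin A, went from 2847, 3527 and 1162 to 6877, 26206 and 6844 normalised reads (log2 fold change 2.24 with an SE of 0.28, adjusted p = 0.00919) and Fst, follistatin, which binds activin, from 3092, 926 and 2287 to 4457, 2393 and 9894 (log2 fold change 1.34 with an SE of 0.26, adjusted p = 0.0285). The ligand Tgfb3 and the receptors Tgfbr2 and Tgfbr3 fell by 1.13, 0.43 and 0.74. Of 26 BMP genes 2 rose and 4 fell (median -0.22). Bmp2, a ligand, rose by 1.04. Bmp3, the inhibitor Smad6, the target Id1 and the antagonist Nbl1 fell by 0.94, 1.02, 0.76 and 0.50. Tgfb3 (0.0543 without set 2), Tgfbr2 (0.0533 without set 1, 0.127 without set 2, 0.177 without set 3), Tgfbr3 (0.123 without set 2), Bmp2 (0.0803 without set 2), Smad6 (0.113 without set 2, 0.0555 without set 3), Id1 (0.0932 without set 2) and Nbl1 (0.122 without set 2, 0.0963 without set 3) lost the call with a set left out, as these adjusted p show. Fitted with all 12 libraries, Fst, Tgfbr2, Tgfbr3, Bmp2, Bmp3, Smad6 and Id1 did not pass (adjusted p from 0.0671 to 0.207).

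Of 19 hedgehog and Notch genes 1 rose and 3 fell (median -0.40). The hedgehog co-receptors Gas1 and Cdon both fell, Cdon from 1937, 809 and 1132 to 1425, 438 and 482 normalised reads (log2 fold change -0.85 with an SE of 0.15, adjusted p = 0.0233), as did Smo, the signal transducer, by 0.55. The Notch ligand Jag1 rose by 0.74. Smo (0.0666 without set 1, 0.137 without set 2) and Jag1 (0.0702 without set 1) lost the call with a set left out, in adjusted p. The larger fit of 12 libraries left out Cdon, Smo and Jag1 (adjusted p from 0.19 to 0.26). Guidance molecules split as 4 rises and 5 falls among 36 (median -0.22). Plxnd1, a semaphorin receptor, went from 86.1, 91.5 and 71.1 to 505, 164 and 376 (log2 fold change 1.92 with an SE of 0.33, adjusted p = 0.0202) and Epha2 rose by 0.87, while Ephb3, another Eph receptor, fell from 349, 273 and 208 to 187, 111 and 94.1 (log2 fold change -1.11 with an SE of 0.15, adjusted p = 0.0114). The adjusted p passed 0.05 with a set left out for Plxnd1 (0.0533 without set 1).

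Transcription factors below the MAP kinases rose in part. In the AP-1, ATF and C/EBP list 4 rose and 2 fell among 30 (median 0.08). Fosl1, an AP-1 subunit, went from 636, 349 and 242 to 1081, 1419.7 and 1207 normalised reads (log2 fold change 1.70 with an SE of 0.27, adjusted p = 0.0177), Maff from 934, 628 and 439 to 1601, 1247 and 1499.6 (log2 fold change 1.18 with an SE of 0.19, adjusted p = 0.0172) and Myc from 558, 448 and 329 to 799, 1043 and 853 (log2 fold change 1.04 with an SE of 0.17, adjusted p = 0.0192), none with overlapping groups. Ets1 rose by 0.97. Cebpd fell from 1793, 3066 and 4289 to 399, 694 and 1685 (log2 fold change -1.88 with an SE of 0.17, adjusted p = 0.00351) and Jund, an AP-1 subunit, by 0.53. Junb had 0.46 and did not pass (adjusted p = 0.054). Among 24 MAP kinase and receptor feedback genes 2 rose and 3 fell (median 0.09). The phosphatase Dusp5 rose from 178, 116 and 63.9 to 307, 508 and 241 (log2 fold change 1.60 with an SE of 0.26, adjusted p = 0.0178) and Dusp2 by 2.26, whereas Dusp1, the phosphatase of p38 and JNK, fell by 0.78 and Etv1 by 2.01. Adjusted p above 0.05 arose with a set left out for Jund (0.0967 without set 2) and Dusp2 (0.0918 without set 1). Of these, Jund did not pass in the fit of all 12 libraries (adjusted p = 0.0561).

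Of 11 NP and notochord markers 6 are listed and 5 were tested, of which 0 rose and 3 fell (median -1.10). The summed level of the 6 went from 4523, 5749 and 8493 normalised reads to 2399, 3502 and 3965. Lgals3 alone made up most of each sum. Lgals3, galectin 3, had 4081, 5227 and 5584 and then 2166, 3189 and 2276 (log2 fold change -0.97 with an SE of 0.13, adjusted p = 0.011). Krt8, a keratin of notochord-derived cells, had 241, 141 and 2639 and 73.8, 78.7 and 1541, far higher in set 3 than in the other sets (log2 fold change -1.10 with an SE of 0.20, adjusted p = 0.023). Pax1, a transcription factor of disc formation, fell from 50.6, 159 and 94 to 20.6, 76.3 and 22.1 (log2 fold change -1.45 with an SE of 0.26, adjusted p = 0.0232). Of 21 lineage transcription factors 0 rose and 3 fell (median -0.43), Pax9 and the tendon factor Scx with -0.78 and -0.76. Leaving out a set ended the call, in adjusted p, for Pax9 (0.0989 without set 2, 0.108 without set 3). A fit of all 12 libraries did not call Pax9 (adjusted p = 0.116). The chondrocyte markers chosen for the check are not analysed here.

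Contractile genes had 0 rises and 7 falls among 25 (median -0.28). Mylk, myosin light chain kinase, fell from 1233, 1323 and 239.8 to 557, 218 and 121 normalised reads (log2 fold change -1.58 with an SE of 0.30, adjusted p = 0.026). Ankrd1, a target of stretch signals, kept the steep order of the sets and fell in each, from 22819, 4504 and 1017 to 13288, 2462 and 672 (log2 fold change -0.75 with an SE of 0.10, adjusted p = 0.0116). Myocd, the co-activator of smooth muscle genes, fell by 1.44, and the filament protein Vim by 0.66. The skeletal muscle markers, which follow the same order of sets as Ankrd1, had 1 fall among 10, Myod1 (log2 fold change -1.49 with an SE of 0.20, adjusted p = 0.0112), and a median of -0.47. Their part in these falls was not tested. With 1 set left out the call was lost for Myocd (0.0681 without set 1, 0.0852 without set 2, 0.106 without set 3) and Vim (0.0657 without set 1, 0.243 without set 3), in adjusted p. In the fit of all 12 libraries Mylk, Ankrd1 and Myocd did not pass (adjusted p from 0.0628 to 0.497).

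Antioxidant genes rose in 8 of 24 cases and fell in 1 (median 0.32). Txnrd1, thioredoxin reductase, went from 11280.3, 3894 and 4319 to 25130.1, 13664 and 20589 normalised reads (log2 fold change 1.74 with an SE of 0.20, adjusted p = 0.00767), Srxn1, sulfiredoxin, from 213, 64.5 and 94 to 398, 244 and 254 (log2 fold change 1.41 with an SE of 0.21, adjusted p = 0.0148) and Gclc, the first enzyme of glutathione synthesis, from 3400.2, 817 and 1223 to 4897, 1610.3 and 2167 (log2 fold change 0.78 with an SE of 0.12, adjusted p = 0.0147). The aldose reductase relative Akr1b8 rose by 2.06 and Ugdh, which makes the sugar precursor of hyaluronan, by 0.99. Gpx1, a glutathione peroxidase, fell from 2192, 2199 and 2014 to 1461, 1272 and 1088 without overlap (log2 fold change -0.75 with an SE of 0.10, adjusted p = 0.0112). Sod2, a known NF-kB target, had 24264, 32229.5 and 48913 and 39620.3, 32385 and 72557 and did not pass (log2 fold change 0.43 with an SE of 0.20, adjusted p = 0.206). Akr1b8 (0.0537 without set 2) lost the call with a set left out, as these adjusted p show.

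Of 16 iron, heme and metallothionein genes 3 rose and 1 fell (median 0.10). Hmox1, which degrades heme, rose from 3055, 1561 and 1326 to 5941, 4500.1 and 7585 normalised reads (log2 fold change 1.67 with an SE of 0.26, adjusted p = 0.0171), the transferrin receptor Tfrc by 1.00 and the transporter Slc11a2 by 0.49, while the ferrireductase Steap4 fell from 151, 784 and 104 to 62.5, 111 and 44.1 (log2 fold change -1.76 with an SE of 0.32, adjusted p = 0.024). In amino acid and thiol metabolism 6 rose and 1 fell among 20 (median 0.33). Slc7a11, the cystine importer, went from 11747, 1089 and 92.8 to 23394, 7797 and 578 (log2 fold change 2.15 with an SE of 0.33, adjusted p = 0.0157). Cdo1, which breaks cysteine down, went from 586, 1577 and 4032 to 240.0, 146 and 397 (log2 fold change -2.68 with an SE of 0.39, adjusted p = 0.0133). Slc1a5, a glutamine transporter, rose by 1.89 and Odc1, the first enzyme of polyamine synthesis, by 0.94. Calls that needed all 3 sets were those of Slc11a2 (0.0572 without set 1, 0.0676 without set 2, 0.137 without set 3), in adjusted p. Slc11a2, Steap4 and Odc1 did not pass in the fit of all 12 libraries (adjusted p from 0.127 to 0.194).

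Lipid mediator genes included both enzymes of an oxysterol route. Among 23 retinoid, steroid and lipid genes 4 rose and 2 fell (median -0.04). Ch25h, which makes 25-hydroxycholesterol, went from 52.1, 47.9 and 88 to 345, 656 and 557 normalised reads (log2 fold change 3.03 with an SE of 0.24, adjusted p = 0.00218), and Cyp7b1, which acts on that product, from 4275, 4813 and 2608 to 14281, 12660.2 and 14255 (log2 fold change 1.86 with an SE of 0.20, adjusted p = 0.00525). In the retinoid branch Dhrs3, which turns retinal back to retinol, fell from 223, 1335 and 318 to 42.6, 244 and 64.7 at nearly the same ratio in every set (log2 fold change -2.36 with an SE of 0.14, adjusted p = 0.000718), and Rdh10, which oxidises retinol, by 1.07. Cyp1b1 rose by 0.61. The adjusted p passed 0.05 with a set left out for Cyp1b1 (0.0545 without set 1, 0.11 without set 3). Fitted with all 12 libraries, Cyp1b1 did not pass (adjusted p = 0.119).

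Purine and nucleotide genes had 4 rises and 4 falls among 23 (median 0.04). The adenosine receptor Adora2b went from 482, 551 and 387 to 780.3, 915 and 749.8 normalised reads (log2 fold change 0.79 with an SE of 0.11, adjusted p = 0.0115) and the nucleotide receptor P2ry2 rose by 0.68, whereas P2ry6, the receptor for UDP, fell from 114, 670.1 and 511 to 46.9, 166 and 237 (log2 fold change -1.46 with an SE of 0.20, adjusted p = 0.0115). Nampt, the enzyme of NAD salvage, rose by 1.09 and Naprt1, of the alternative NAD route, fell by 1.16. Xdh, which makes uric acid, fell by 1.06 and the ectonucleotidase Enpp3 by 1.23. Adjusted p above 0.05 arose with a set left out for P2ry2 (0.0795 without set 2) and Naprt1 (0.0795 without set 2). The larger fit of 12 libraries left out Xdh and Enpp3 (adjusted p from 0.0748 to 0.257). Of 23 channel and transporter genes 3 rose and 2 fell (median 0.06). Slc20a1, a phosphate importer, went from 11457, 13242 and 4428 to 24546, 37264 and 13639 (log2 fold change 1.40 with an SE of 0.15, adjusted p = 0.00521), and the stretch-gated channel Piezo1 rose by 0.65. When all 12 libraries were fitted together, Piezo1 did not pass (adjusted p = 0.0748).

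Genes of cell survival and death rose in 6 of 28 cases and fell in 2 (median 0.21). Bcl2a1, an antiapoptotic Bcl2 relative, went from 60.7, 24.4 and 72.3 to 308, 372 and 570.4 normalised reads (log2 fold change 3.05 with an SE of 0.28, adjusted p = 0.00351). Cflar, the caspase 8 inhibitor cFLIP, rose from 1034, 1585 and 1101 to 2217, 3698 and 2685 (log2 fold change 1.20 with an SE of 0.09, adjusted p = 0.00218). The death receptor Fas and the proapoptotic Bid rose beside them, by 1.05 and 0.77, and Gas6, a survival ligand of Axl, fell by 1.13. Glucose and hypoxia genes gave 3 rises and 0 falls among 27 (median 0.04), Egln3 with 0.82, Slc2a1 with 0.54 and Slc2a6 with 1.23. Cell cycle genes had 0 rises and 2 falls among 32 (median -0.01), both cyclin-dependent kinase inhibitors. The falls were 6.25% of the list, near the 4.65% of all tested genes. Cdkn2c went from 167, 239.6 and 393 to 90.2, 88.6 and 141 (log2 fold change -1.26 with an SE of 0.18, adjusted p = 0.0117) and Cdkn1b fell by 0.79. Ccnd1, cyclin D1, had 14535, 12227 and 6150.4 and 15858, 23306 and 15409 and did not pass (log2 fold change 0.79 with an SE of 0.22, adjusted p = 0.0702). With 1 set left out the call was lost for Slc2a1 (0.0693 without set 1, 0.123 without set 3), Slc2a6 (0.0953 without set 3) and Cdkn1b (0.158 without set 2), in adjusted p. Of these, Slc2a1 did not pass in the fit of all 12 libraries (adjusted p = 0.0986).

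Most genes that rose or fell in PLKO cells had the same direction, by value, in cells with the TonEBP shRNA. Of the 610 genes that rose in PLKO cells and have a value in shTon cells, 608 were higher with TNF-a there, and of 573 that fell, 561 were lower, where 49.1% of all genes were higher by value. The medians were 0.54 in shTon against 0.75 in PLKO cells for rises, and -0.61 against -0.84 for falls. The genes were chosen for passing in PLKO cells, so the smaller medians in shTon cells are a description and no test. The shTon_TNF library of set 1 holds Nfat5 at a level that goes against its label. With sets 2 and 3 alone, 600 of the 610 were higher and 569 of the 573 lower, with medians of 0.58 and -0.65. In shTon cells 241 genes rose (1.95%) and 164 fell (1.33%) of 12339 (3.28% called), in the fit with the set as a block. This count rested on set 1 and on the block: 1105 genes passed without set 1 (529 rose and 576 fell), 365 and 317 without sets 2 and 3, and 6 without the block. It cannot be read against the 9.62% of PLKO cells. With all 3 sets, the 405 genes included 195 of the genes that rose in PLKO cells and 140 of those that fell, and 0 had passed in the opposite direction.

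The difference between the effects, tested as an interaction over all 12 libraries with the set as a block, passed for 0 of 12310 genes in limma, with 219 (1.78%) at an unadjusted p under 0.05. The smallest adjusted p was 0.999, and 0.248 without set 1. The design of 3 libraries a group leaves wide errors. The examples that follow were chosen after their values were seen. For Gas1 the log2 fold change was -3.23 in PLKO and -1.60 in shTon cells, with an interaction of 1.63 (SE 0.79). Hmox1 had 1.67 and 0.29 (-1.37, SE 0.41), Nos2 1.63 and 3.16 (1.54, SE 0.57), and Tnfaip3 2.78 and 2.72 (-0.06, SE 0.22). In shTon sets 1 to 3 the log2 ratios were -1.61, -2.48 and -0.70 for Gas1, 0.81, 0.11 and -0.03 for Hmox1, 3.26, 2.64 and 3.58 for Nos2 and 2.54, 2.98 and 2.64 for Tnfaip3.

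**Figure D5:**
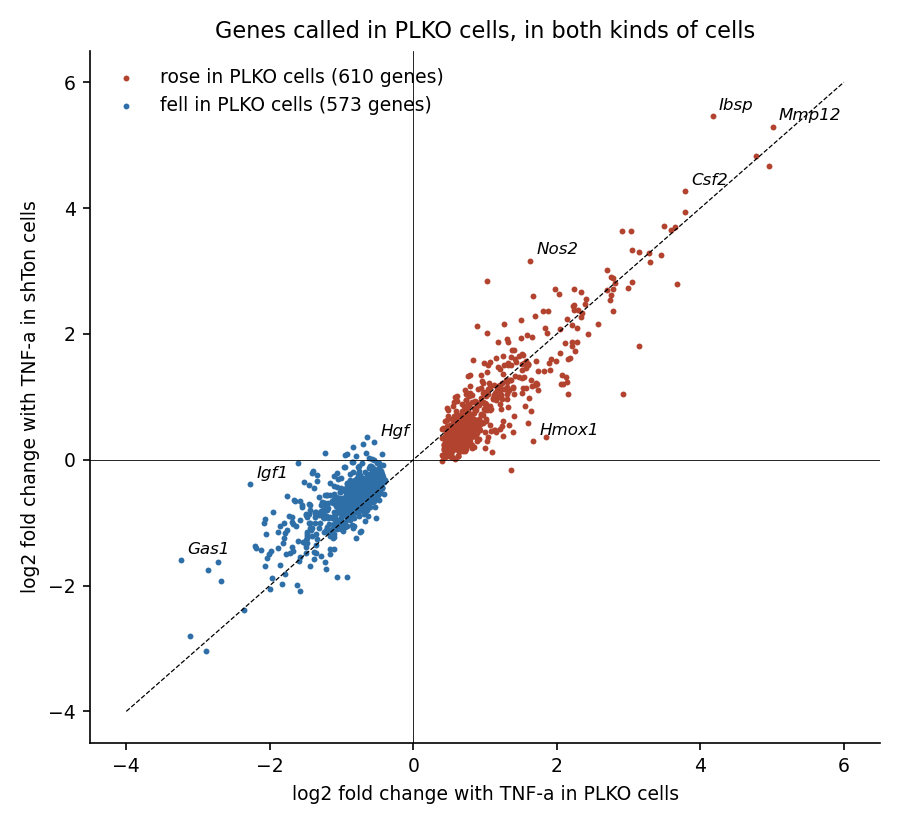
Genes that rose (610, red) or fell (573, blue) in PLKO cells and have a value in shTon cells, placed by their log2 fold change with TNF-a in both, with a dashed line of equal change. Most points keep their sign, and Gas1, Igf1 and Hmox1 lie off the line while 0 genes passed the test of a difference.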

How the data were processed

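RNA-seq was done on 12 libraries of rat NP cells in 4 groups of 3, of which the 6 PLKO libraries form the main comparison. The submitters' processing notes name the tools Novoalign 2.08.01 and DESeq2 and the rat build rn5 without saying what each was used for. The deposited values are a normalised signal per gene and library, per the file headers. They are read counts divided by 1 factor per library, since 100% of the values came out as whole reads. The margin was 0.01 read, and wider in proportion to the value for genes with many reads. Columns of the authors' own log2 fold change and p-value were left unused. Counter, strandedness and annotation were not given in the sources used here. Overlapping and antisense genes therefore cannot be told apart, and Cxcl1, Cxcl2, Cxcl3, Ccl3 and Akr1b8, which have near-identical copies, are uncertain.

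Genes whose mean reached 10 normalised reads were fitted with limma 3.58.1 (R 4.3.3) on log2(value + 1), with the set number as a block, a trend of variance with mean, and p-values adjusted by Benjamini-Hochberg over all tested genes at 0.05. Fold changes are on that log2 scale and are understated for low genes. SE is the moderated standard error. The fit was tested on simulated data. Set numbers pair the libraries, since deviations from the group means correlated at 0.731 to 0.886 between PLKO libraries of 1 set. Between those of different sets the values were -0.739 to 0.109. Deviations cancel out within a group, so positive values within sets bring negative ones between sets, which are no separate support. Libraries of a group differed beyond counting noise (chi-square per degree of freedom 102 to 170 in the PLKO groups). For shTon cells and the interaction, whole reads of the 3 tables were joined over 12899 genes and scaled with DESeq2 1.42.0 size factors. Recovered reads were also tested with edgeR 4.0.16 and DESeq2.

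The members and 49 gene lists (1093 genes, 146 with no match by symbol or RefSeq synonym) were chosen with earlier results of these data known. Named genes are the 15 largest rises and falls with a mean of at least 50 and the same sign in all sets, each list's called members (all where at most 6, otherwise 4 a direction by adjusted p) and its 2 members with the most reads, Nfat5, the 5 largest changes in read share and the 5 widest ranges among sets. Names outside this rule are marked, and a few genes under it are not reported here. Promoters come from the RefSeq tables of GRCr8.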

Additional observations from a re-analysis of the deposited data

Results flagged for a closer look

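Hgf, hepatocyte growth factor, fell in all 3 PLKO sets with TNF-a and was higher with TNF-a in all 3 shTon sets. The difference of the effects (shTon minus PLKO) was 0.82 on the log2 scale (SE 0.61), and its adjusted p as an interaction in limma was 0.999. Its log2 fold changes were -0.54 in PLKO and 0.28 in shTon cells.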

How the results depend on the processing

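The count of 1190 called genes was 0 without the replicate block in limma and in edgeR and 142 in DESeq2 without it, the last pair chosen after seeing the data. It was 55 without the mean-variance trend and 696 when 12 libraries were fitted with the block, and ran from 545 to 1410 with 1 set left out. The remaining settings lay within 1.5 times, with 979 and 1274 with pseudocounts of 0.1 and 5, 1263 with no filter, 1151 at a mean of at least 50, 1215 with TMM scaling, 1205 in blocked edgeR and 1348 in blocked DESeq2. The cause of these differences was not tested, beyond fewer libraries in the fits with a set left out. For shTon cells 405 genes became 6 without the replicate block and 317 to 1105 with 1 set left out. The interaction called 0 genes under every alternative tried. The 277 genes with values by rule include some not called in the main fit. Without the block 211 of them were no longer called in limma and in edgeR, which were all of the called ones. The call was lost by 145 in DESeq2 without the block, 181 without the trend and 63 with all 12 libraries. It was lost by 28, 55 and 35 without sets 1 to 3, 20 with a pseudocount of 0.1, 5 in blocked edgeR and 2 in blocked DESeq2. Of the genes with means of 10 to 100 normalised reads 4.17% were called, and the part of depth in this was not tested.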

Other observations

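Ribosome biogenesis is covered by no list of the report. A list of 58 tested nucleolar and ribosome assembly genes, written after some of their values were seen and therefore given with no test, held 38 that rose and 0 that fell, with a median log2 fold change of 0.60 and all 58 above 0 by value. Nop56, a core protein of the particles that methylate ribosomal RNA, went from 2488, 891 and 689 to 3676, 2062 and 1657 normalised reads (log2 fold change 1.01 with an SE of 0.15, adjusted p = 0.015). Polr1b, a subunit of RNA polymerase I, went from 976, 397 and 307 to 1595, 777 and 666 (log2 fold change 0.93 with an SE of 0.12, adjusted p = 0.00915). Gnl3, nucleostemin, rose by 0.88 and Npm1, nucleophosmin, by 0.63. Untreated levels of these genes were highest in set 1, and the groups overlapped in all 4. Of the 38 calls 10 passed with any 1 set left out, that of Npm1 not among them, and Npm1 did not pass in the fit of all 12 libraries (adjusted p = 0.0737). In shTon cells 0 of the 58 were called, and the median was 0.36. Of 10 polyamine genes, in a list also written after values were seen, 4 rose and 0 fell. Of these 4 calls 2 passed with any 1 set left out. Amd1, which supplies the aminopropyl donor, rose from 1610.4, 1155 and 1633 to 3497, 2143 and 3048 (log2 fold change 0.97 with an SE of 0.10, adjusted p = 0.00466).

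A list of FOXO factors and of genes described as their targets was also written after values were seen. Of its 22 tested genes 1 rose and 9 fell (median -0.51), and 5 of these 10 calls passed with any 1 set left out. The factor genes Foxo1, Foxo3 and Foxo4 are among the 22, and Foxo3 is among the 9 that fell. Ccng2, an atypical cyclin of resting cells, went from 492, 881 and 915 to 242, 282 and 419 normalised reads (log2 fold change -1.26 with an SE of 0.15, adjusted p = 0.00766). Sesn3, a sestrin, went from 1004, 2031 and 1665 to 649.6, 645 and 684 (log2 fold change -1.19 with an SE of 0.19, adjusted p = 0.0171), and Bmf, a proapoptotic BH3 protein, from 197, 233 and 272 to 80.2, 103 and 82.3 (log2 fold change -1.39 with an SE of 0.17, adjusted p = 0.00915), none of the 3 with overlapping groups. Cited2, a transcriptional co-regulator, was the gene that rose (log2 fold change 0.73 with an SE of 0.09, adjusted p = 0.01). Among 16 clock genes, in another list written after values were seen, 0 rose and 3 fell (median -0.21). Arntl2 had log2 fold change -1.68 with an SE of 0.21, adjusted p = 0.00937 and the clock output gene Dbp log2 fold change -1.17 with an SE of 0.18, adjusted p = 0.0171. Sesn3 and Dbp did not pass in the fit of all 12 libraries (adjusted p just above 0.05 for Sesn3 and 0.0537 for Dbp). Of 12 regulators of G protein signalling, from a list written after values were seen, 4 rose and 0 fell (median 0.40). Rgs3 had log2 fold change 0.96 with an SE of 0.14, adjusted p = 0.0132. The call of Rgs3 passed with any 1 set left out, and those of the other 3, Rgs7, Rgs14 and Rgs16, did not.

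Gdf15, a stress-induced hormone, was among the largest rises outside all lists, from 467, 76.7 and 38.6 to 1700.4, 766 and 476 normalised reads (log2 fold change 2.92 with an SE of 0.31, adjusted p = 0.0054), and is named after its value was seen.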
